A study of Bombyx mori with 2 samples.

Results

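The genes with the most variant sites in the silkworm epidermis are 134 of the 6641 genes in which at least 1 site was listed. A variant site is a position where reads of RNA differed from the genome sequence of SilkDB, the silkworm genome database. The 134 genes were selected on their number of sites: single-base variants and indels (short insertions and deletions) were added up, each site was counted once for a gene, and every gene with more than 35 sites was kept at any coverage. The number of sites chose the genes, so it is given below as a description with no test, and so is the number of sites per kb of gene span, which follows from it. The 134 genes held 7070 of the 47044 sites, that is, 15.03% of the sites in 2.02% of the genes, while their spans made up 4.44% of the summed gene spans.

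RNA was taken from the epidermis of *Bombyx mori* larvae of the 4th instar at 6 hours after molting. One library was made from the plain strain 932VR, labelled as wildtype, and the other from q-lp (purple quail-like), a pigment mutant with quail markings that was obtained from 932VR and then inbred, and each library pooled 3 silkworms. The tables count the reads of both libraries together, so no value could be given for a strain and the strains were not compared. A site with reads of both alleles can arise from libraries that differ or from silkworms of a pool that hold both alleles, and these cannot be told apart here. Other sources of such a site were not examined. With 1 library per strain there is no replicate, and genes and sites are not replicates of a condition, so no p-value is given.

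RNA reads fall mostly on exons. In a coding exon, a change at the last base of a codon often leaves the amino acid as it was, and changes at last bases lie a multiple of 3 bases apart. An insertion or deletion of a multiple of 3 bases keeps the reading frame, and one of another length shifts it. The tables give the gene of a site and the start and end of that gene on a SilkDB scaffold, but not exons, introns or untranslated regions, so every position below is a position within a gene span.

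Among the 134 genes the number of sites was between 36 and 166, with a median of 45, and 88 of them held 36 to 50 sites. Only 6 genes held over 100 sites. BGIBMGA006856 (Bm_scaf70, 734157 to 825505) held the most, 166 sites over a span of 91349 bp. BGIBMGA010471 (Bm_scaf6, 731951 to 828001) followed with 131 sites over 96051 bp, the longest span of the 134. The third and the fourth, BGIBMGA002035 (Bm_scaf23, 1606823 to 1626905) with 127 sites and BGIBMGA002034 (1627022 to 1640658) with 120, lie side by side on one scaffold with 116 bases between them. BGIBMGA010900 (Bm_scaf61, 1744930 to 1766693) held 109 sites and BGIBMGA012488 (Bm_scaf56, 179966 to 201173) held 104. The next 11 genes held 79 to 94 sites: BGIBMGA000117, BGIBMGA008575, BGIBMGA006589, BGIBMGA000010, BGIBMGA013376, BGIBMGA012007, BGIBMGA013531, BGIBMGA005561 and, with 79 each, BGIBMGA001935, BGIBMGA009816 and BGIBMGA010779. At the limit of the choice there was no break in the numbers, as 17 genes held 36 sites and 9 genes held 35. The genes with 36 sites had a median of 2.78 sites per kb and a median span of 12932 bp, and those with 35 sites had 3.70 sites per kb and 9468 bp. One of the genes with 35 sites is BGIBMGA013949, a mucin gene.

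The 134 genes were both longer and denser in sites than the other genes. Their spans had a median of 13513.5 bp, against 5342 bp for the 6507 other genes with sites. Across all 6641 genes the number of sites rose weakly with span (Spearman's rho = 0.22). A choice by number of sites can thus favour long genes, and the difference in span is not independent of it. In the 134 genes sites per kb had a median of 3.90 with quartiles of 2.27 and 5.97, against 0.816 with quartiles of 0.329 and 2.00 in the other genes. The 146 genes with 26 to 35 sites lay between them at 3.001 sites per kb and 9570.5 bp. The range within the 134 was wide: 14 genes had over 10 sites per kb and 26 had under 2. BGIBMGA007833 (Bm_scaf3, 2763215 to 2764909) was the densest, with 37 sites in 1695 bp or 21.8 sites per kb. At the other end BGIBMGA013297 (Bm_scaf71, 733149 to 803572) spread 39 sites over 70424 bp or 0.554 per kb. The densest of all genes with at least 10 sites, BGIBMGA009479, had 27.1 sites per kb but only 20 sites in 738 bp and so was not among the 134. A choice by sites per kb would have kept mostly other genes, since 17 of the 134 (12.7%) were also among the 134 densest genes. That is still above the 2.02% that the 134 make up of all genes with sites, and both choices use the number of sites. Within the 134 genes, sites per kb fell with span (Spearman's rho = -0.90 across genes, n = 134, both measures share the span, and genes are not independent replicates). The choice kept the number of sites in a narrow range, 36 to 50 in 88 of the genes, so a steep fall was largely built in. Over all 6641 genes with sites rho was -0.62.

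**Figure D1:**
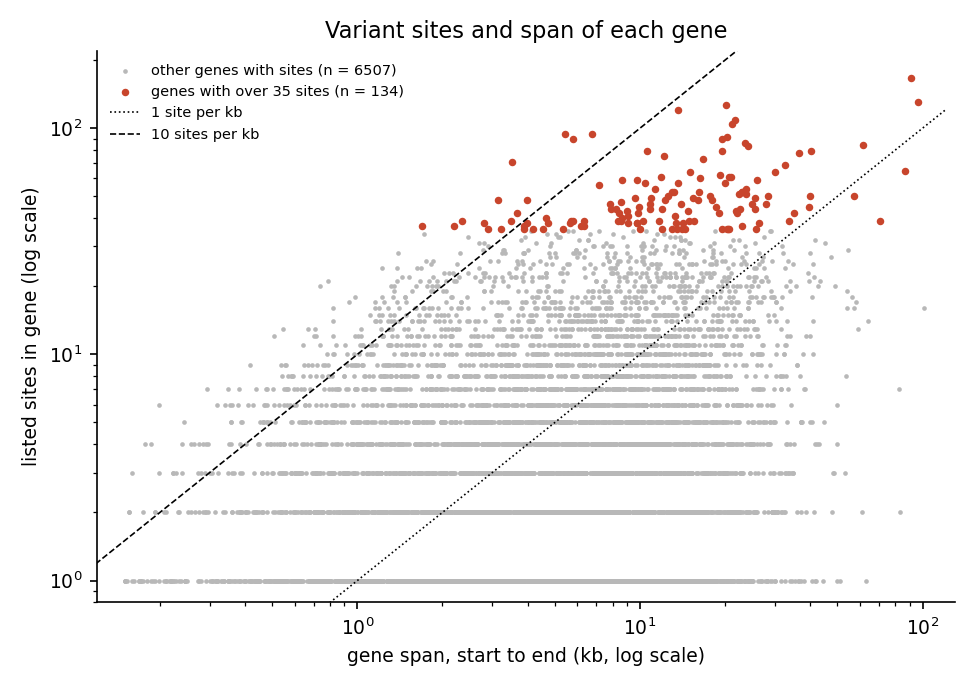
Number of listed sites (y axis, log scale) against gene span in kb (x axis, log scale) for each gene, with the 134 genes with over 35 sites in red, the 6507 other genes in grey, and lines at 1 and 10 sites per kb. The red points run from 1695 to 96051 bp, and 14 of them lie above the line of 10 sites per kb.

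Sites were not spread evenly along the genes. Of the 6936 gaps between neighbouring sites in the 134 genes, 69.3% were of at most 100 bp (close gaps), against 61.6% of 20944 gaps in the 1341 other genes with at least 10 sites and 64.4% of 4160 gaps in the genes with 26 to 35 sites. More sites per kb leave shorter gaps, and the choice by number of sites raised the sites per kb. The difference in close gaps is thus not independent of the choice and is given as a description only. The sites reached over most of the span in most of the genes. From the first to the last site a median of 86.6% of the span was covered, near the 85.7% of the genes with 26 to 35 sites, while 59 of the 134 genes passed 90% and 16 stayed under 50%. When sites were divided at gaps over 500 bp, the 134 genes had a median of 5 clusters, with the largest one holding a median of 57.8% of the sites. The most crowded window of 500 bp held 6 to 26 sites, with a median of 13, and 16 genes had a window of at least 20 sites. In 12 genes there was a site in each of 10 equal parts of the span, and 13 genes had all their sites in 1 cluster.

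Single genes show how different these layouts were. BGIBMGA006856 had its 166 sites in 41 clusters, the most of any gene, and 38.2% of its gaps were of at most 100 bp. BGIBMGA004547 (65 sites, Bm_scaf48) had the lowest share of such gaps, 35.9%, with 35 clusters over 98.6% of its span of 86474 bp. BGIBMGA000117 had the highest share at 92.5%, and 93 of its 94 sites were in 1 cluster. BGIBMGA005700 (49 sites, Bm_scaf143) held the most crowded window, 26 sites in 500 bp. In BGIBMGA001129 (Bm_scaf1, 4597837 to 4630499) all 69 sites fell within 4673 bp, 14.3% of its span and the smallest extent of the 134. By contrast the 37 sites of BGIBMGA008523 reached over 99.8% of its span. The 109 sites of BGIBMGA010900 covered 38.3% of its span, and the rest of that gene had no listed site. Whether a stretch without sites had no differences or no reads cannot be read from a list of variant sites only. No listed site had over 100 reads, and whether deeper positions were left out is not known.

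**Figure D2:**
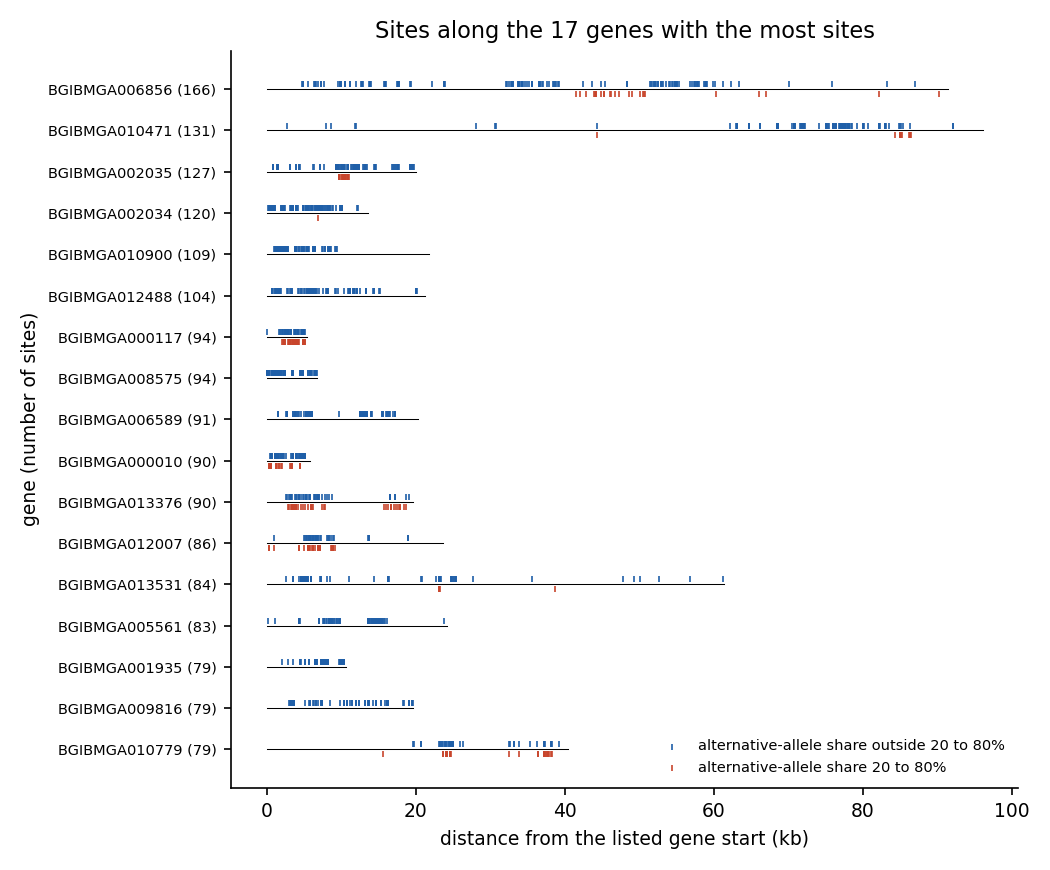
Sites along the 17 genes with 79 or more sites, by distance in kb from the listed gene start (x axis), one line per gene as long as its span, with the number of sites in brackets. Sites with 20 to 80% alternative reads are red marks below the line and all others blue marks above it; the 21 red marks of BGIBMGA002035 stand in one short stretch, while BGIBMGA010900, BGIBMGA012488 and BGIBMGA008575 have none.

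Gaps between neighbouring single-base sites were often a multiple of 3 bases, the codon length, while the codon positions of the sites were not known. Among gaps of 1 to 100 bp in the 134 genes, 53.8% of 4619 were a multiple of 3 (exact 95% confidence interval 52.4 to 55.3%), where a spacing that ignored codons would give 33.3%. Intervals here and below cover counting error only, and sites of one gene are linked. The share was 57.9% (57.0 to 58.8%) in the other genes with at least 10 sites and 54.7% (52.8 to 56.6%) in the genes with 26 to 35 sites. At gaps over 300 and up to 1000 bp it dropped to 40.4% (36.2 to 44.6%) in the 134 genes. A gap of 3 bp was the most frequent one, with 10.1% of the 2711 gaps of 1 to 30 bp, against 5.79% for 1 bp and 4.21% for 2 bp.

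Genes differed in this respect as well. In 72 of the 134 genes most of the close gaps were multiples of 3, and in 18 genes the share was at or below 33.3%. BGIBMGA013297 had the highest share, 94.4% of its 18 close gaps. Among the genes with the most sites, BGIBMGA012488 had 81.7% of 71 and BGIBMGA010471 had 78.3% of 83. BGIBMGA007065 (Bm_scaf21) had the lowest share, 9.52% of 21. BGIBMGA000010 had 33.8% of 74 and BGIBMGA001935 had 34.5% of 58, close to 33.3%. The neighbours BGIBMGA002035 and BGIBMGA002034 both had 40.7% of 91. Transitions, the exchange of a purine for a purine or of a pyrimidine for a pyrimidine, made up 65.6% of the single-base variants of the 134 genes (64.5 to 66.7%) and 67.3% of those of the other genes with at least 10 sites (66.7 to 67.9%).

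**Figure D3:**
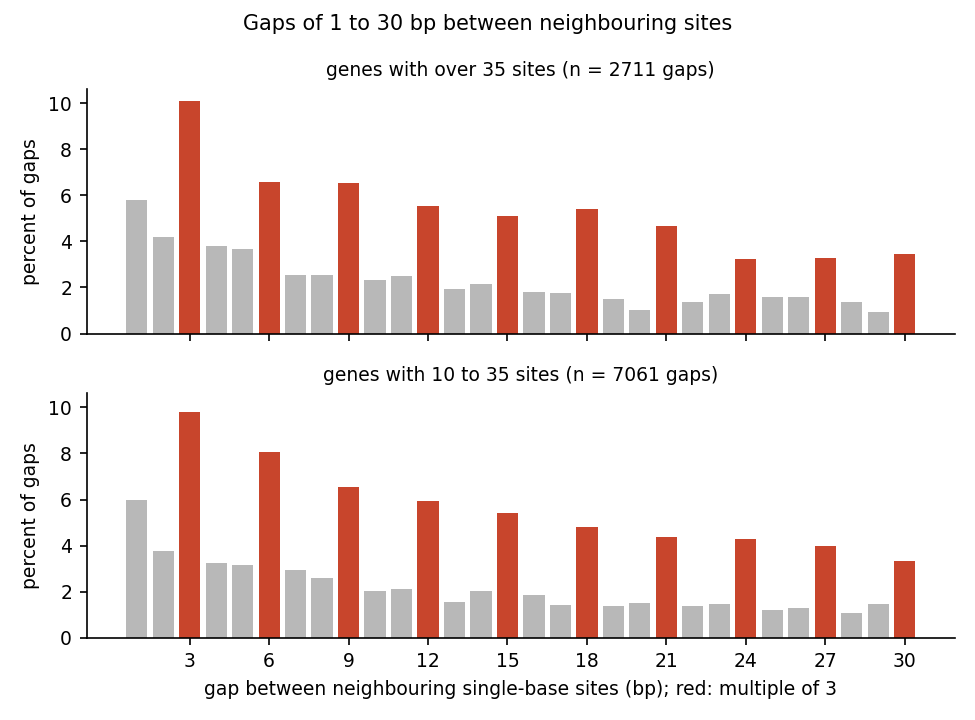
Gaps of 1 to 30 bp between neighbouring single-base sites (x axis), as a percent of all gaps in that range (y axis), in the 134 genes with over 35 sites (upper, 2711 gaps) and in the 1341 genes with 10 to 35 sites (lower, 7061 gaps). Multiples of 3 are red and stand above the grey bars beside them in both panels.

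Indels made up 217 of the 7070 sites in the 134 genes, a share of 3.07% (exact 95% confidence interval 2.68 to 3.50%). This share was 3.17% in all other genes, 2.46% (2.26 to 2.68%) in the other genes with at least 10 sites and 2.65% (2.19 to 3.17%) in the genes with 26 to 35 sites. No indel was listed in 59 of the 134 genes, and 16 genes held at least 5. The number was highest, at 8 each, in BGIBMGA001935, BGIBMGA001129 and BGIBMGA004547. As a share of sites, BGIBMGA000667 (Bm_scaf8, 3586883 to 3595325) was highest with 6 of 42 sites or 14.3%. Of the 215 indels with 1 alternative allele, 118 were insertions and 97 deletions, and 120 were of 1 base (55.8%, against 61.1% in the other genes with at least 10 sites). In 117 of the 215 the added or lost bases were followed by a copy of themselves. A multiple of 3 bases was added or lost in 41 (19.1%, interval 14.05 to 24.97%), against 15.3% (12.4 to 18.6%) in the other genes with at least 10 sites. The coverage of an indel had a median of 6 reads.

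The longest indels show what kinds of change were listed, and 20 of the 215 were of 9 bases or more. The alleles below were chosen after their values had been seen; each is the longer allele of the table in the direction written there, with the added or lost bases in capitals, placed as far left as they can be. BGIBMGA000388 (Bm_scaf18, 1404285 to 1419174), described by the study as an insect cuticle protein with a collagen triple helix repeat, held 3 indels of 9 bases. A collagen helix has glycine at residues spaced by 3, and 9 bases encode 3 residues.
insertion at 1415758: cACCAGGACAaccagg
deletion at 1415911: aGCCAGGAAC
deletion at 1416697: cAGGACAACTaggacaac
All 3 were mixed in the pooled reads, with the alternative allele in 5 of 19 reads (26.3%), 11 of 26 (42.3%) and 15 of 24 (62.5%). BGIBMGA000388 also held an insertion of 1 base at 1418325, in 74 of 74 reads, a length that is not a multiple of 3. In BGIBMGA006796 (40 sites, Bm_scaf253) an insertion of 22 bases at 17367 stood next to a deletion of 22 bases at 17403.
insertion at 17367: gCCCGATGATATCAATACCATCT
deletion at 17403: tATCAAAGCAAAGGGAATCAAAG
Every read carried the alternative allele, 14 of 14 and 11 of 11. Neither length is a multiple of 3, but the insertion added as many bases as the deletion removed. If both lie in a coding exon of the same transcript, the reading frame is shifted only between them. Whether they are parts of a single replaced or misaligned segment was not tested. The only other indel listed in this gene was a deletion of 1 base at 17515, in 4 of 4 reads.
In BGIBMGA008091 (37 sites, Bm_scaf87) the 14 bases inserted at 1140162 were a copy of the bases that follow.
insertion at 1140162: aCCTTTAAGTCATGTcctttaagtcatgt
Only 2 reads covered it. The longest indel of the 134 genes was a deletion of 30 bases at 378936 in BGIBMGA010654 (Bm_scaf84, 375514 to 379175), covered by 3 reads.
deletion at 378936: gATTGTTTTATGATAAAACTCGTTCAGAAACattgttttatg
A deletion of 18 bases at 2179595 in BGIBMGA005561 (Bm_scaf33), also covered by 3 reads, removed units of a repeat of which 1 more followed.
deletion at 2179595: aGTCGTGGGGGTCGTGGGGgtcgtggggg
At the other end of length, all 8 indels of BGIBMGA004547 were of 1 base, and 7 of the 8 had 100% alternative reads.

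The coverage of a site is the number of reads with the reference or the alternative base. Over all sites it ranged from 2 to 100 reads, and at least 2 reads had the alternative base, so a site with 2 reads could only have 100% alternative reads. The sites of the 134 genes were covered somewhat more deeply than the others, with a median of 9 reads against 6 in all other genes and 7 in the other genes with at least 10 sites. At least 10 reads covered 48.2% of the sites in the 134 genes and 39.8% in the other genes with at least 10 sites, and 9.35% and 15.1% of the sites had 2 reads only. More reads allow more sites to be listed, at least up to the highest listed value of 100 reads. The coverage is thus not independent of the choice. Over all 6641 genes, which share the same libraries, the number of sites and the median coverage had a Spearman's rho of 0.20 across genes. Within the 134 genes it was 0.04.

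Median coverage per gene spanned 3 to 50.5 reads. BGIBMGA009828 (42 sites, Bm_scaf51) was covered most deeply, with a median of 50.5 and a highest value of 98 reads. BGIBMGA010471 had a median of 32 reads, BGIBMGA013531 of 28 and BGIBMGA002035 of 26. In BGIBMGA007401 (46 sites, Bm_scaf55), one of the lowest, the median was 3 and no site reached 10 reads. BGIBMGA000010 held 90 sites at a median of 4.5 reads. A median under 5 reads was found in 23 genes and one of at least 20 in 25 genes. With only sites of at least 10 reads counted, 28 of the 134 genes would still have held more than 35 sites.

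A site was taken as mixed when 20 to 80% of its reads had the alternative base. In the 134 genes 1002 of 7070 sites were mixed, 14.2% (Wilson 95% interval 13.38 to 15.01%), against 13.1% (12.7 to 13.4%) in all other genes and 13.04% (12.6 to 13.5%) in the other genes with at least 10 sites. Among sites with at least 10 reads the shares were 21.2% (19.9 to 22.6%), 21.0% (20.4 to 21.7%) and 20.7% (19.9 to 21.5%), with intervals that overlap. The genes with 26 to 35 sites had 13.7% (12.7 to 14.7%) of all sites mixed, and 20.2% (18.4 to 22.1%) at 10 reads or more. These intervals overlap those of the 134 genes too. At 83.5% of the sites of the 134 genes every read had the alternative base. The tables do not show whether both libraries had reads at such a site.

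Mixed sites were concentrated in some of the genes. No mixed site was listed in 74 of the 134 genes (55.2%), 14 genes held 1 to 4, and 46 genes held at least 5. These 46 genes held 975 of the 1002 mixed sites (97.3%). A share of at least 20% was reached by 39 genes (29.1%), in which the median share was 44.4%. Of the other genes with at least 10 sites, 67.9% had no mixed site and 22.3% reached a share of 20%. For the genes with 26 to 35 sites these values were 65.1% and 24.0%. Genes with more sites have more chances to hold a mixed one, so the shares of genes without any are not like for like. The highest share was found in BGIBMGA010500 (Bm_scaf6, 268812 to 278566), a gene of the study's list of cuticle proteins, with 31 of 38 sites or 81.6%. BGIBMGA012543 (59 sites, Bm_scaf77) had 48 mixed sites, from 51 bp to 9686 bp after its start. Their alternative share, taken inside the limits that define a mixed site, had a median of 49.7%. Of the 17 genes with 79 or more sites, BGIBMGA000117 had 52 mixed sites of 94, BGIBMGA012007 had 44 of 86, BGIBMGA013376 had 42 of 90 and BGIBMGA010779 had 29 of 79. In contrast BGIBMGA010900, BGIBMGA012488, BGIBMGA008575, BGIBMGA006589, BGIBMGA005561, BGIBMGA001935 and BGIBMGA009816 had none in 79 to 109 sites. BGIBMGA012488 had 71 sites with at least 10 reads, and all 104 of its sites had 100% alternative reads.

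**Figure D4:**
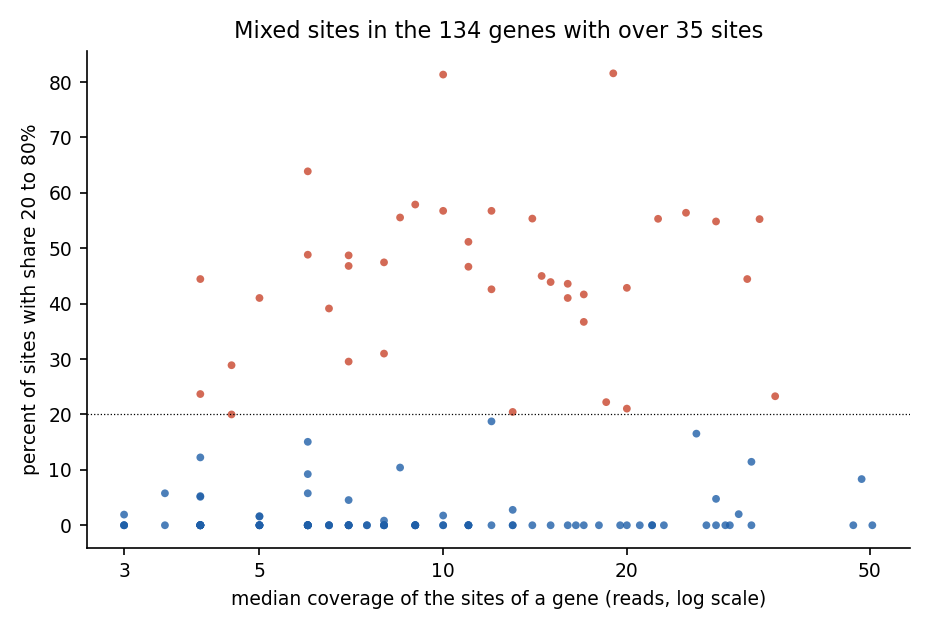
Percent of sites with 20 to 80% alternative reads (y axis) against the median coverage of the sites (x axis, reads, log scale) for each of the 134 genes, in red from 20% upward and in blue below. Genes over 40% have a median coverage of 4 to 33 reads and genes at 0% are found over the same range; the highest point is BGIBMGA010500 at 81.6%.

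The mixed sites of a gene took up a short stretch in some genes and most of the span in others. In the 46 genes with at least 5 mixed sites, 1902 of 2582 pairs of neighbouring sites (73.7%) were of the same kind. No share for a random order was computed, and where few sites of a gene are mixed most pairs are alike in any order. Runs of mixed and of other sites took turns, with a median of 14 runs per gene. When mixed sites were divided at gaps over 5 kb, 26 of the 38 genes with a span over 5 kb had them all in 1 stretch. A span only slightly over 5 kb leaves little room for another stretch. From the first to the last mixed site a median of 58.0% of the gene span was taken up, in 5 genes under 20% and in 11 genes over 80%. BGIBMGA002035 is one of these 5. All its 21 mixed sites lay between 9.69 and 10.97 kb from its start, 6.36% of the span, among 36 sites, whereas none of the 91 sites outside was mixed. The median coverage was 11 reads inside this stretch and 34 outside. Its neighbour BGIBMGA002034 had 1 mixed site in 120, with 72.7% alternative reads of 11. In BGIBMGA010471, 14 of the 15 mixed sites lay between 84.31 and 86.40 kb from the start, among 19 sites with a median of 23 reads, and 1 of the 112 sites outside was mixed. In BGIBMGA006856, 20 of the 25 mixed sites were found among 26 sites within 9.26 kb, and 5 among the other 140. BGIBMGA004325 (38 sites, Bm_scaf79) had the shortest stretch of those with a single one, 9 mixed sites in a row within 190 bp and none in 29 sites outside. BGIBMGA000388 had 22 mixed sites, the 3 indels of 9 bases among them, within 1567 bp, and none of its 13 other sites was mixed. These genes were picked for their stretches, and the coverage in and around a stretch often differed, a part in the pattern that was not tested.

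The alternative share at mixed sites was not the same along a gene. Its median per gene ran from 33.3% to 75% in the 46 genes and lay between 40 and 60% in 34 of them. Only shares inside the limits that define a mixed site enter these medians. A flat spread between those limits would also put medians near their middle, so the medians do not show an even balance of alleles. In BGIBMGA000117 the 52 mixed sites ranged from 20 to 78.6%, with quartiles of 29.3 and 70%, and 30 of them had at least 20 reads. Low and high values were interleaved over 3.13 kb of this gene, and sites with 100% alternative reads lay between them. BGIBMGA000010 had 26 mixed sites with a median of 75%, at 4 to 16 reads per site. BGIBMGA012060 (73 sites, Bm_scaf24) had 17 mixed sites with a median of 70.6% at a median of 43 reads. BGIBMGA013376 had 42 with a median of 36.4%.

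**Figure D5:**
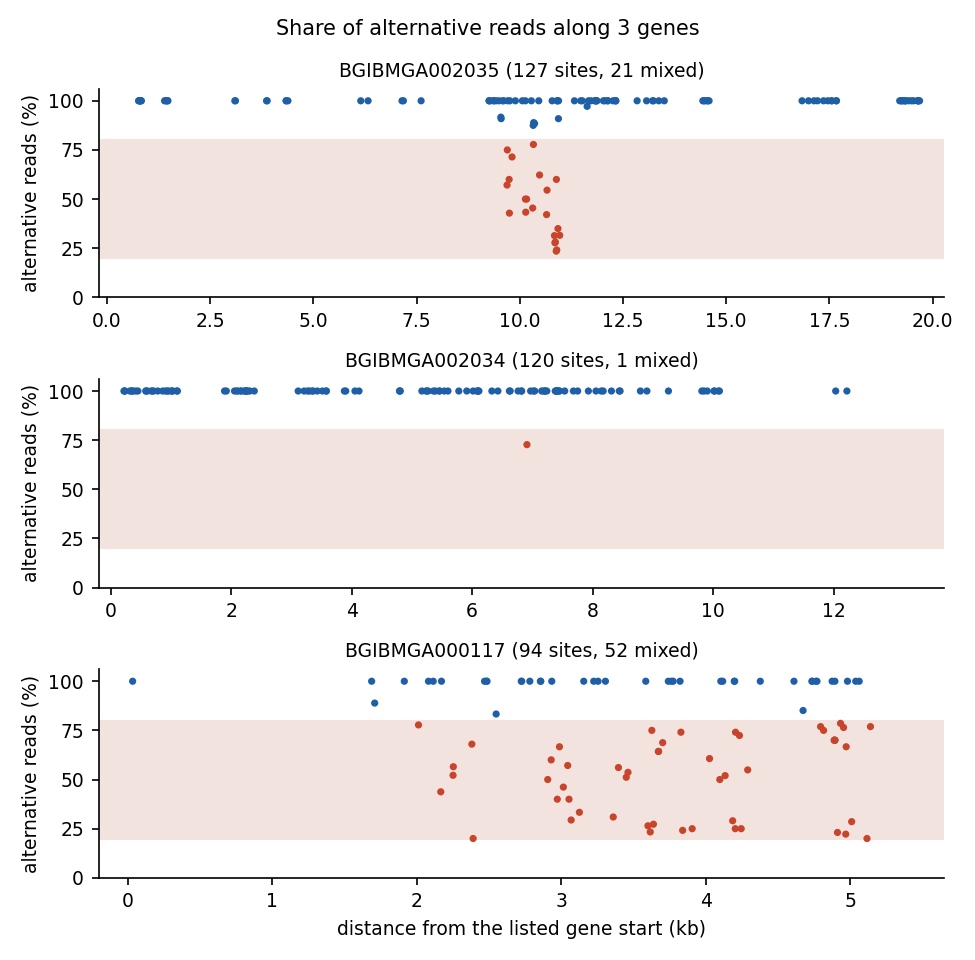
Percent of reads with the alternative base (y axis) at each site against distance from the listed gene start in kb (x axis) in BGIBMGA002035, BGIBMGA002034 and BGIBMGA000117, with mixed sites (20 to 80%, shaded) in red and others in blue. The 21 mixed sites of BGIBMGA002035 stand between 9.69 and 10.97 kb, BGIBMGA002034 has 1, and the 52 of BGIBMGA000117 range from 20 to 78.6%.

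The 134 genes were found on 81 of the 312 scaffolds with sites. A single one of them lay on each of 52 scaffolds, and 15 scaffolds held 3 or more, 54 genes in all. Bm_scaf1 held 6 of them among 240 genes with sites (2.50%), and Bm_scaf13 held 5 among 136 (3.68%). The highest proportion on a scaffold with at least 20 such genes was 11.5%, 3 of 26 genes on Bm_scaf45. On Bm_scaf23, 3 genes held 284 of the 593 sites of the scaffold (47.9%). Most of the 134 genes were far from each other, as the 53 pairs that follow each other on a scaffold were a median of 828190 bases apart. Besides BGIBMGA002035 and BGIBMGA002034, the pairs with no other listed gene between were BGIBMGA001470 and BGIBMGA001469 on Bm_scaf7, 7315 bases apart, and BGIBMGA009891 and BGIBMGA009892 on Bm_scaf51, 51755 bases apart. The last pair differed in mixed sites, with 1 of 57 in BGIBMGA009891 and 22 of 38 in BGIBMGA009892.

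Genes next to the 134 were not rich in sites. The 253 nearest genes with sites on either side, none of them among the 134, had a median of 4 sites and 0.907 sites per kb, beside 4 sites and 0.815 per kb in the 6254 genes that were not next to one. Their share of mixed sites, however, differed with that of the gene beside them. Of 870 sites next to the 74 genes without mixed sites, 3.79% were mixed (Wilson 95% interval 2.71 to 5.28%). Of 510 sites next to the 39 genes with at least 20% mixed sites, 31.4% were mixed (27.5 to 35.5%), while genes not next to one of the 134 had 13.02%. No mixed site was listed in 131 of 142 genes of the first kind and in 34 of 76 of the second. The median coverage was 5 and 6 reads. The same split was not made for the neighbours of other genes, so the difference is not shown to be particular to the 134. The sites of the adjoining genes took no part in the choice of the 134, but sites of one gene and of one scaffold are linked, so the intervals are too narrow.

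None of 45 genes chosen for quantitative PCR, mostly of pigments, chitin, nuclear receptors or strong differences in expression, was among those with over 35 sites. Sites were listed in 30 of the 45, and with 2.02% of all genes with sites among the 134, a count of 0 in 30 is near that share and says nothing of these genes. In the 30 genes the most were the 35 of the mucin gene BGIBMGA013949, followed by 25 in the chitin gene BGIBMGA011646. Of the 208 genes in the study's list of cuticle proteins, the structural proteins of the insect exoskeleton, 80 had sites and 4 of these (5%, beside 2.02% of all genes with sites) were among the 134. BGIBMGA010654, listed there under the description casein, had 42 sites in 3662 bp or 11.5 per kb, 5 indels and no mixed site. BGIBMGA000388 had 39 sites at a median of 25 reads, of which 22 were mixed. BGIBMGA010500 had 38 sites at a median of 19 reads, and its 31 mixed sites had alternative shares of 33.3 to 73.9%. BGIBMGA008136 (Bm_scaf52) had 36 sites in 1 cluster over 47.8% of its span, at a median of 4 reads, and none was mixed. So the share of mixed sites ran from 0 to 81.6% among the 4 genes.

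Annotation terms were held for part of the genes only: 19 of the 134 were in the part of the annotation used here, and 12 of these had a term. BGIBMGA001558 (Bm_scaf7, 5285480 to 5290190), with isoleucine-tRNA ligase activity, that is, the enzyme that loads isoleucine on its tRNA, had 38 sites in 1 cluster, each covered by 15 to 61 reads. Of its 26 close gaps 84.6% were multiples of 3, and 21 of its sites were mixed. BGIBMGA001935 (Bm_scaf28, 1854746 to 1865324), annotated to the dystrophin-associated glycoprotein complex, which anchors the cytoskeleton at the plasma membrane, had 79 sites, 8 of them indels, and every read at every site had the alternative allele. BGIBMGA001129, annotated both to DNA binding and to glucosylceramidase activity, the cleavage of glucosylceramide, had 69 sites, 8 indels and no mixed site. BGIBMGA000667, annotated to hormone activity, had 42 sites at a median of 6 reads and no mixed site. BGIBMGA001096, annotated both to protein heterodimerization activity and as a structural constituent of the ribosome, had 36 sites of which 23 were mixed. BGIBMGA001372 (actin binding, 50 sites), BGIBMGA000894 (vesicle-mediated transport, 46 sites) and BGIBMGA001646 (metal ion binding, 59 sites) had no mixed site. BGIBMGA000117 and BGIBMGA000010 were in the part used and had no term. With so few terms no function can be named for the 134 genes as a group.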

How the data were processed

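Total RNA of the epidermis, 1 library of 932VR and 1 of q-lp, was enriched for mRNA and sequenced on an Illumina instrument by the authors, who aligned the reads to SilkDB; how sites were then listed, by which program and with which filters, is not given in the sources used here. The deposited tables of single-base variants and indels give, for both libraries together, the count of reads at a site (coverage, 2 to 100) with its reference and alternative parts, and a deposited percent of alternative reads. Both tables were joined and each site was kept once for a gene, position and alleles; 43 positions were listed under 2 genes, 1 of them in a gene with over 35 sites. All shares, gaps and medians were computed with Python 3.11.15, pandas 2.3.3, numpy 2.4.6 and scipy 1.17.1 and tested on simulated data. Shares have exact (Clopper-Pearson) or Wilson 95% intervals; no test was run. The genes and lists were chosen with earlier results of these data known. Named genes are the 15 with the most sites, 17 with ties at 79, the genes at either end of a measure (1 of them where several tie) and the densest gene; others were named after their values had been seen, among them the cuticle protein genes, the annotated genes and those with indels, stretches or neighbours described. Annotation words come from the study's supplementary lists; no expression value was used.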

Additional observations from a re-analysis of the deposited data

How the results depend on the processing

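The number of genes and their values depended on the limits. With over 30 sites no value left its interval or moved by over 1.5 times. With over 40 sites 86 genes remained and 13% of their sites were mixed. With only sites of at least 5 reads, 64 genes on 49 scaffolds had over 35 sites, with a median extent of 80.1%, 2.67% indels, a median coverage of 16 reads and 18.5% mixed sites. At 10 reads or more it was 28 genes on 25 scaffolds, with 2.66 sites per kb, 67.6% close gaps and an extent of 79.8%. These 28 genes had 2.09% indels, a coverage of 25 reads and 23.0% mixed sites. All 64 and all 28 genes were among the 134, which had to be so, since leaving out sites can only lower a count. With single-base variants only, 13.3% of sites were mixed, and an indel share could not be given. The 134 genes of most sites per kb had 12.0 sites per kb, 79.6% close gaps, an extent of 82.6%, 1.66% indels and 17.5% mixed sites. Mixed sites made up 15.8% at 10 to 90% alternative reads, 10.1% at 30 to 70%, and 21.2% in the same genes at 10 reads or more. Close gaps made up 53.0% at a limit of 50 bp and 81.3% at 200 bp. Over the length from the first to the last site there were 5.18 sites per kb. As medians over genes, coverage was 8.5 reads, indels 1.87% and mixed sites 0%. The last of the mixed shares, and the shares of multiples of 3 and of transitions under the 6 other choices of genes, were alternatives chosen after seeing the data. No paired analysis was possible because each strain had 1 library and the reads are counted together. Many sites rest on few reads, with a median of 9 in the 134 genes, and a site with 2 reads can never be mixed.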
